A study of Mus musculus with 18 samples.

Results

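The major urinary proteins (Mups) were followed through 7 genes, Mup1, Mup2, Mup3, Mup7, Mup10, Mup20 and Mup21, taken as the rows whose gene name equalled a member. They were 7 of 24539 gene rows in each library, and 7 of the 21 rows named Mup. The livers came from wild type male C57BL/6 mice that were 16 weeks old and had been on 1 of 3 diets since the age of 8 weeks, that is, for 8 weeks. The diets were normal chow (control), high-fat (HFD), and high-fat plus lycopene (HFD+LYC), lycopene being the red carotenoid of tomatoes. Each of 9 livers, 3 per diet, gave 1 poly(A) library of total RNA (mRNA) and 1 of the RNA recovered with ribosome-nascent chain complexes (RNC), pelleted by ultracentrifugation through sucrose. All members were also summed, since several are near-identical copies.

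Mups are small secreted lipocalins, barrel-shaped proteins that carry hydrophobic ligands. Mouse hepatocytes make them in very large amounts, above all in males, under pulses of pituitary growth hormone and the action of androgens, glucocorticoids and thyroid hormone. They pass from blood to urine, where they bind and slowly release volatile pheromones. Mup20, or darcin, is itself a male pheromone that attracts females, and Mup1 has been studied as a circulating protein that affects glucose and lipid metabolism. The genes sit in a cluster with a central set of near-identical copies and a set of more divergent peripheral genes at its edges.

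The 7 members lay on the minus strand of chromosome 4 within 2084 kb (RefSeq annotation of GRCm38.p6). Mup7 was at chr4:60066469-60070475, Mup2 at chr4:60135913-60139977, Mup1 at chr4:60498012-60501960 and Mup10 at chr4:60578260-60582276. Some distance further lay Mup20 at chr4:62011337-62054143, Mup3 at chr4:62083476-62087317 and Mup21 at chr4:62147832-62150841. Each had 6 coding exons in the GENCODE M21 transcript used. The coding length was 540 bases in Mup1, Mup2, Mup7 and Mup10, 543 in Mup20 and Mup21, and 552 in Mup3.

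Coding sequence set Mup1, Mup2, Mup7 and Mup10 apart as near-identical copies. Pairs among Mup1, Mup2, Mup7 and Mup10 were 98.70% to 99.44% identical, with 3 to 7 differing bases over 540. Mup3, Mup20 and Mup21 were 83.33% to 91.11% identical to those 4 genes. Mup3 and Mup21 were 95.58% identical to each other. Mup20, though next to them in position, was closer in coding sequence to the central copies (90.37% to 91.11%) than to Mup3 (87.29%) and Mup21 (87.48%). A 90-base coding stretch is printed to show how little sequence tells the central copies apart. It runs from coding base 164 in the central copies (base 176 in Mup3, base 167 in Mup20 and Mup21, counted from the first base of the start codon), from the GENCODE M21 transcripts of GRCm38. Capitals mark bases that differ from Mup10.
Mup10: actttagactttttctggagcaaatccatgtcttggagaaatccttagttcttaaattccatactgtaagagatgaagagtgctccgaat
Mup2: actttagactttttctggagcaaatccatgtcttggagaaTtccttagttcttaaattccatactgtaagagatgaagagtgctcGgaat
Mup1: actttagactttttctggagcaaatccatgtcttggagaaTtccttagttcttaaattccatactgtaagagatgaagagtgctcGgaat
Mup7: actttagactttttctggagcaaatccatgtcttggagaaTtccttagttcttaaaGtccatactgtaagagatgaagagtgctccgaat
Mup20: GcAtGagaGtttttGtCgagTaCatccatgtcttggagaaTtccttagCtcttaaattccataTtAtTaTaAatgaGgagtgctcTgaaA
Mup3: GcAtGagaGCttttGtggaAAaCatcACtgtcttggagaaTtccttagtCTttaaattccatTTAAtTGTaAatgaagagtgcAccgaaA
Mup21: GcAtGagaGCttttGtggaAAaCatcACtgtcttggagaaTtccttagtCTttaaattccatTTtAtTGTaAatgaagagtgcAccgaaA
In this stretch Mup1 and Mup2 were identical and differed from Mup10 at 2 bases, as did Mup7, while Mup20, Mup21 and Mup3 differed at 18, 23 and 24.

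How far a read can name its gene follows from these sequences. Of all 100-base windows of the Mup2 transcript, 97.3% also occurred unchanged in another Mup gene, against 87.2% for Mup1, 85.4% for Mup7 and 73.3% for Mup10. The share was 4.50% for Mup21, 3.10% for Mup3 and 0 for Mup20. With windows of 150 bases it was still 90.7% for Mup2 and 65.2% for Mup10, and 0 for Mup3, Mup20 and Mup21. Neither the read length, nor the aligner, nor how reads with several matches were treated is given in the sources used here. As single genes, the counts of Mup1, Mup2, Mup7 and Mup10 are therefore uncertain, more so than those of Mup3, Mup20 and Mup21. The Mup2 row listed 9 identifiers, which stood for 3 accessions.

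Listed reads ranged from 4533729 to 12742436 per library. RNC libraries of the HFD+LYC diet were unlike the rest: 8940, 9567 and 10037 genes had reads in them, against 13324 to 14450 in the other RNC libraries. Single-read genes numbered 112, 70 and 74 in them, against 614 to 861 in the other RNC libraries. In HFD+LYC mRNA replicate 2, single-read genes numbered 189, where the remaining mRNA libraries had 652 to 798. The share of the authors' read total not listed under any gene was largest in HFD+LYC RNC replicate 2, at 29.9%. The only comparison below in which the main fits called members uses these HFD+LYC libraries, and the part of these traits in it was not tested. All 9 hepatocyte markers, among them Alb, Ttr and Hnf4a, had reads in all 18 libraries. In bulk tissue, fewer hepatocytes and less Mup RNA per hepatocyte cannot be told apart. The labels name biological replicates, and p-values of the diet comparisons within mRNA or RNC measure the spread between these livers. Those of RNC against mRNA, and of changes in that ratio, come from all 18 libraries with no term for the liver. Both libraries of a liver enter them as if separate.

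The 7 genes took a large part of all liver reads. In mRNA they held 9.92%, 10.6% and 13.7% of listed reads in the control replicates 1, 2 and 3. HFD livers had 13.5%, 5.58% and 9.70%, and HFD+LYC livers 7.60%, 2.24% and 7.66%. All 3 HFD+LYC livers were below all 3 control livers, and the HFD livers overlapped both. In RNC the share was 15.9%, 21.9% and 19.0% in control livers, 24.1%, 8.16% and 17.5% in HFD livers and 17.9%, 9.90% and 7.44% in HFD+LYC livers. In 8 of 9 livers the RNC share was above the mRNA share, the exception being HFD+LYC replicate 3. The 7 members made up 76.0% to 90.3% of the reads of the 21 Mup rows (median 85.1%). Among the other 14 rows, Mup11 had 10415 to 103430 reads a library and Mup4 at most 3.

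**Figure D1:**
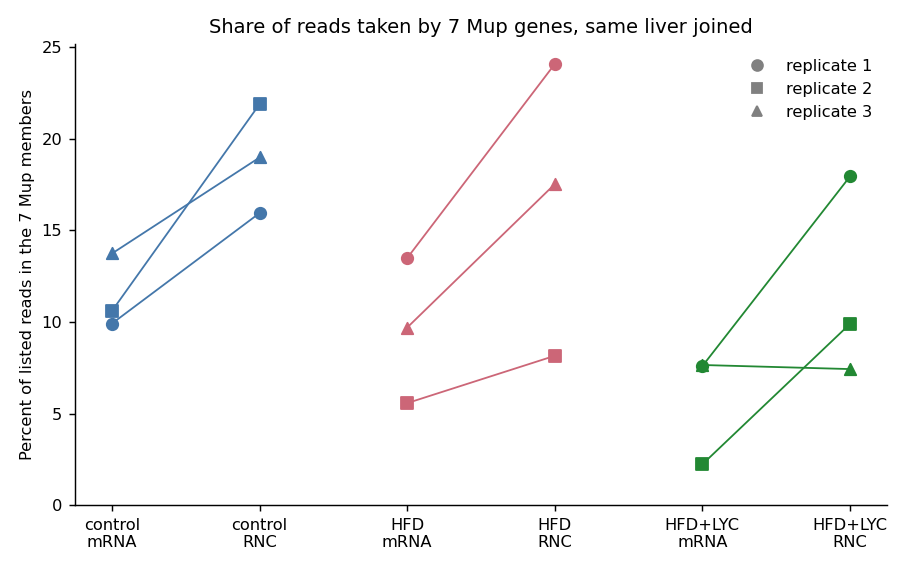
Percent of listed reads in the 7 Mup members (y axis, from 0) for each liver, with lines joining the mRNA and the RNC library of 1 liver and marker shapes giving the replicate. The share was 2.24% to 13.7% in mRNA and 7.44% to 24.1% in RNC, and RNC was below mRNA in HFD+LYC replicate 3 alone.

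Mup10, a central copy, was the most read gene of all in 5 of 9 mRNA and 2 of 9 RNC libraries, and was among the first 5 in all 18. Mup2 was among the first 10 in 8 mRNA and 9 RNC libraries. Levels between genes were compared as RPKM rescaled with TMM factors, that is, per kilobase of the length in the files. In control mRNA Mup10 led with 65478 ± 11073 (SD, n = 3), followed by Mup2 with 37036 ± 7716. Mup20 with 11342 ± 5967, Mup3 with 11002 ± 4991 and Mup7 with 9984 ± 3814 formed a group whose order was within their spread. Mup1 stood at 4442 ± 1451 and Mup21 at 827 ± 637. The neighbours Mup10 and Mup2, Mup7 and Mup1, and Mup1 and Mup21 did not overlap over the 3 control livers. In control RNC the order was Mup10, Mup2, Mup7, Mup20, Mup3, Mup1 and Mup21, from 81746 ± 14857 to 1015 ± 324, with Mup7, Mup20 and Mup3 again within their spread and with overlap between Mup10 and Mup2.

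The mRNA levels of the central copies, as TMM-scaled CPM (counts relative to the effective library size), differed between the livers of 1 diet. Mup10 stood at 51624, 52617 and 69014 CPM in control livers (replicates 1, 2 and 3, here and in what follows), 70474, 25165 and 40637 in HFD livers and 37985, 10880 and 44606 in HFD+LYC livers. Mup2 stood at 26920, 23048 and 34585 in control livers, 31369, 11090 and 23182 in HFD livers and 14869, 2740 and 18225 in HFD+LYC livers. Replicate 2 was the lowest HFD liver and the lowest HFD+LYC liver for both. Mup7 stood at 9105, 7119 and 14715 in control livers, 9856, 928 and 10878 in HFD livers and 5289, 807 and 4839 in HFD+LYC livers. Mup1 stood at 3629, 3349 and 5908 in control livers, 4944, 433 and 3042 in HFD livers and 1770, 178 and 1548 in HFD+LYC livers. For these 4 genes every HFD+LYC liver was below every control liver, and HFD replicate 2 was lower than HFD+LYC replicates 1 and 3.

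The peripheral genes showed another split of the control livers in mRNA. Mup20 stood at 12459, 3987 and 13702 CPM in control livers, 9517, 5731 and 19230 in HFD livers and 6013, 1320 and 6046 in HFD+LYC livers. Mup3 stood at 12678, 4758 and 12535 in control livers, 9833, 5208 and 13752 in HFD livers and 7670, 1721 and 9766 in HFD+LYC livers. For both genes control replicate 2 lay below the other control livers and below 2 of the 3 HFD+LYC livers, so the groups overlapped. Mup21, the least abundant member, stood at 1127, 169 and 578 in control livers, 465, 253 and 563 in HFD livers and 180, 43.3 and 269 in HFD+LYC livers. Replicate 2 held the lowest mRNA level of 6 of 7 members in control and of 7 of 7 in HFD and in HFD+LYC. The share of the authors' read total that was not listed under any gene was also the largest of its diet in each mRNA replicate 2, at 23.0% (control), 19.7% (HFD) and 7.91% (HFD+LYC), against 1.25% to 8.18% in the other mRNA libraries. Its part in the low levels was not tested.

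**Figure D2:**
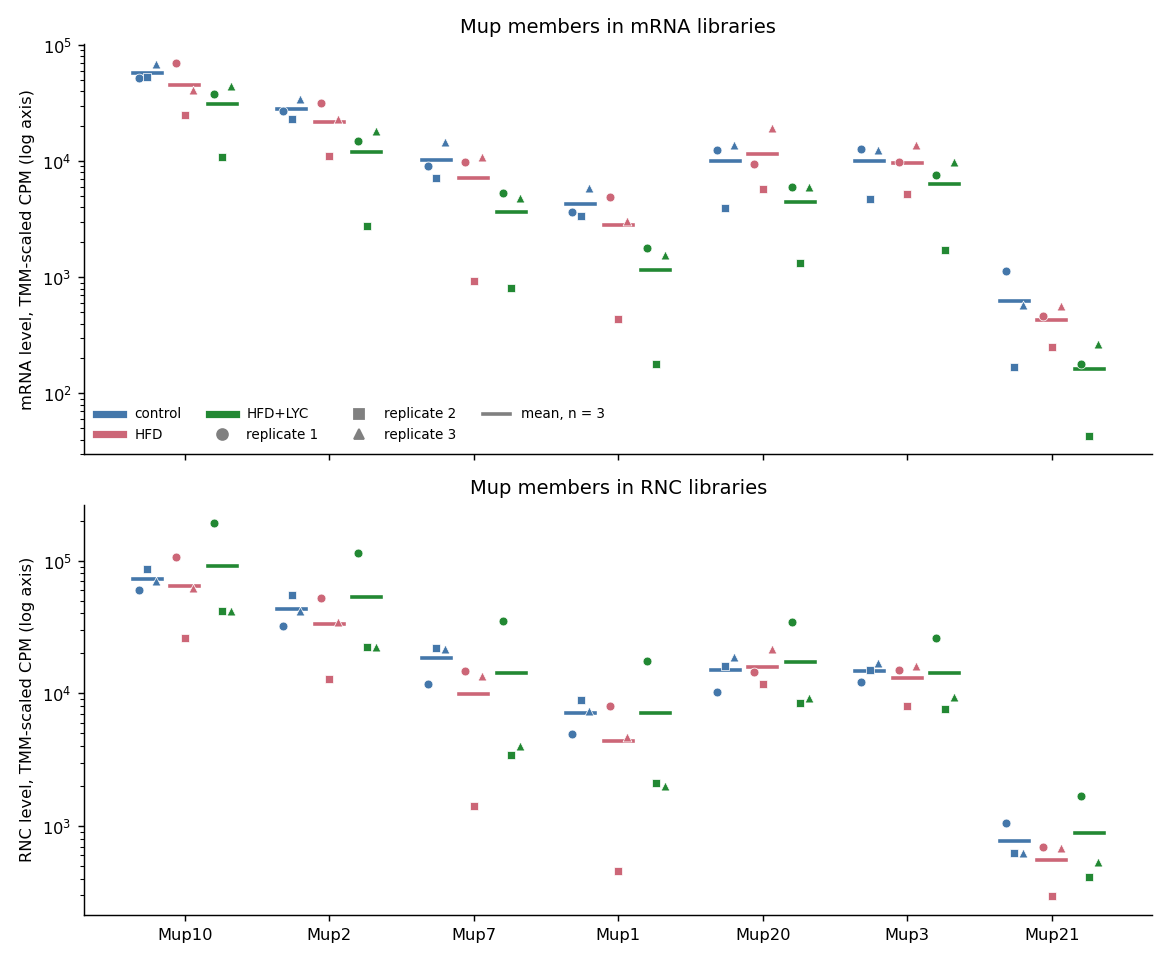
Level of each member in each library as TMM-scaled CPM on a log axis, mRNA above and RNC below, with colours for the diet, marker shapes for the replicate and bars for the mean of 3 livers. The low Mup7 (928) and Mup1 (433) of HFD mRNA replicate 2 and the high HFD+LYC RNC replicate 1 stand out.

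The mix of members also differed between livers. HFD replicate 2 had 17.2 Mup1 reads per 1000 Mup10 reads in mRNA and 17.5 in RNC, against 63.6 to 85.6 in control mRNA and 82.7 to 104 in control RNC. The other 2 HFD livers had 70.2 and 74.8 in mRNA, and 75.7 and 75.2 in RNC. HFD+LYC replicate 2 was as low in mRNA, at 16.3, but had 50.4 in RNC. For Mup7, HFD replicate 2 was low again, with 3.69 reads per 100 Mup10 reads in mRNA and 5.35 in RNC, each the lowest of 9 libraries. Mup20, by contrast, was high against Mup10 in that liver's RNC at 44.7 reads per 100, the highest of the 9 RNC libraries, and HFD replicate 3 was the highest in mRNA at 47.3. The profile of 7 members (log2 shares of member reads) in an RNC library was nearest to the mRNA profile of its own liver in 5 of 9 cases, namely all 3 HFD livers and control replicates 1 and 3. In HFD the root mean square difference to the own liver was 0.0621 to 0.344 on the log2 scale, while none of the HFD+LYC RNC libraries was nearest to its own liver. How far reads that fit several copies bear on these ratios was not tested.

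**Figure D3:**
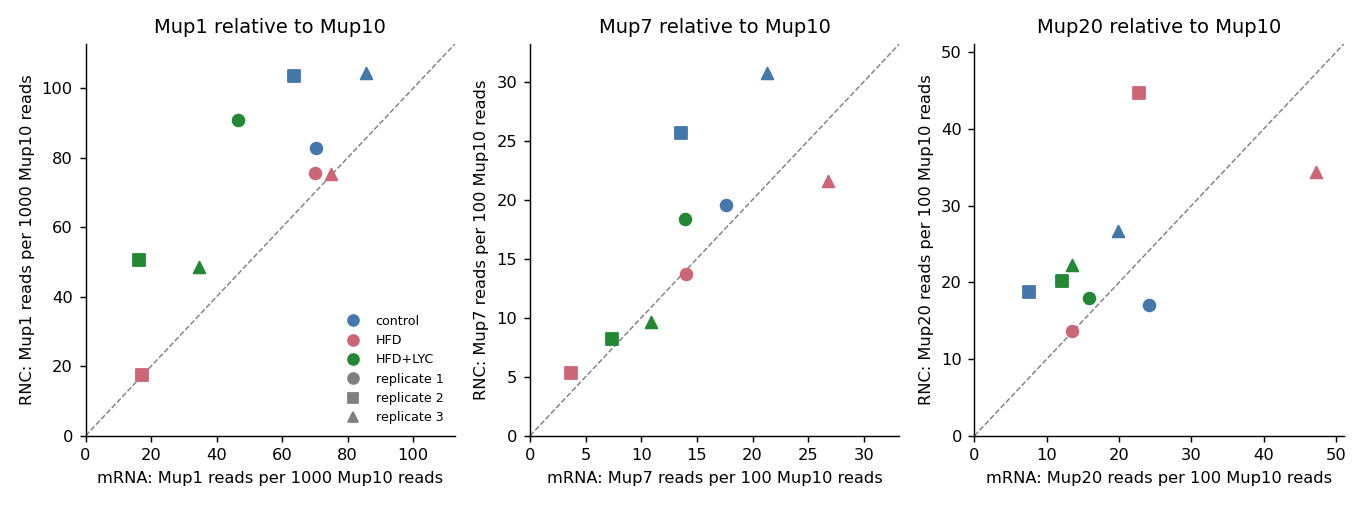
Reads of Mup1 (per 1000), Mup7 (per 100) and Mup20 (per 100) relative to Mup10 reads, mRNA on the x axis and RNC on the y axis, with 1 point per liver, colours for the diet, shapes for the replicate and a dashed line of equality. HFD replicate 2 is low for Mup1 in both libraries (17.2 and 17.5) and high for Mup20 in RNC (44.7).

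Whether the high-fat diet moved Mup mRNA was asked from HFD against control livers. The 7 members summed to 98850 ± 45128 CPM in HFD and 121208 ± 28176 in control (SD, n = 3), a log2 ratio of -0.29. Log2 changes were below 0 for 6 of 7 members (50.9% of all genes were below 0), from -0.61 for Mup1 to 0.19 for Mup20, with a median of -0.37 and standard errors of 0.64 to 0.85. edgeR's quasi-likelihood test called 0 of 7 (0.0158% of 12664 genes were called), each at an adjusted p of 1.00, 0 of 7 had an unadjusted p under 0.05, and DESeq2 and limma-voom called 0. The groups overlapped for every member. The directions of Mup3, Mup7, Mup20 and Mup21 turned when single libraries were left out, and that of Mup3 also with library totals.

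Other genes of the same hormonal control gave a setting for this comparison. Of 16 other male-biased liver genes tested, 14 were below control with a median of -0.63, and 0 were called. Of 16 female-biased genes, only 6 passed the filter on low counts. These lay above control with a median of 2.45, and 0 were called. Cyp2b9, at 0 CPM in control, could pass the filter only through diets where it was higher. The direction of such genes was partly fixed by the filter, so this median is no separate evidence on the Mups. Of 19 genes of growth hormone signalling and known Mup regulators, 12 were below control with a median of -0.12, and 0 were called. The abundant secreted plasma proteins, 16 genes with Alb and Apoe at the head, had a median of -0.09. The median of all genes was -0.01.

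Adding lycopene to the high-fat diet went with lower Mup mRNA values that did not pass the test. The sum of 7 members was 58921 ± 36170 CPM in HFD+LYC, a log2 ratio of -0.75 against HFD and of -1.04 against control. Against HFD all 7 members were below 0 (51.9% of all genes), from -1.38 for Mup21 and -1.37 for Mup20 to -0.54 for Mup10, with a median of -0.99. edgeR called 0 of 7 (2.91% of genes were called), with adjusted p from 0.255 to 0.613, 0 of 7 had an unadjusted p under 0.05, and DESeq2 and limma-voom called 0. The groups overlapped for every member. All 11 Kupffer cell (liver macrophage) markers were also below 0, with a median of -1.18 and 1 called lower. They summed to 214 to 367 CPM in HFD+LYC, 320 to 671 in HFD and 228 to 417 in control, with none at 0, and their part in the Mup values was not tested. Without HFD+LYC mRNA replicate 2 the log2 ratio of the sums was -0.31 in place of -0.75.

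Against control, all 7 members were again below 0 in HFD+LYC (52.3% of all genes), with a median of -1.24. This comparison shares its HFD+LYC libraries with the previous one and its control libraries with HFD against control. Mup21 had the largest change, with 164 ± 114 against 624 ± 481 CPM (n = 3; log2 change -1.93, SE 0.73, edgeR adjusted p = 0.139), and Mup1 followed with 1165 ± 863 against 4295 ± 1404 CPM (log2 change -1.88, SE 0.88, edgeR adjusted p = 0.219). Mup1, Mup2, Mup7 and Mup10 were lower without overlap between the groups, 4 of 7 where 13.7% of all genes were. These 4 are the near-identical copies, whose counts may share reads, so they do not stand for 4 separate observations. Mup3, Mup20 and Mup21 overlapped. edgeR called 0 of 7 (5.54% of genes were called), limma-voom called 0 and DESeq2 called 1, Mup21, at an adjusted p of 0.0367. Unadjusted p was under 0.05 for 1 member, Mup21 at 0.0213 (23.9% of all genes). Without HFD+LYC mRNA replicate 2 the log2 ratio of the sums was -0.61 in place of -1.04, and without control mRNA replicate 2 edgeR called Mup21 at an adjusted p of 0.0497. How many of all genes DESeq2 or that reduced fit called is not given here.

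The values of related genes lay beside these. The 16 abundant secreted plasma proteins had a median of -0.82 in HFD+LYC against control, with 14 below 0 and 0 called. The 10 other lipocalins tested had a median of -0.82 with 0 called. Of these, Lcn2 (0.40), Obp2a (0.72) and Orm3 (1.53) were above 0 and the rest below. Of 16 other male-biased genes, 15 were below 0 with a median of -0.76 and 0 called. Among growth hormone and regulator genes, Cebpb, a transcription factor of the C/EBP family, rose from 72.5 ± 22.7 to 523 ± 33.2 CPM (edgeR adjusted p = 0.00297), and Thrb, a thyroid hormone receptor, fell from 43.1 ± 6.38 to 19.0 ± 2.69 CPM (edgeR adjusted p = 0.0210). The other 17 of 19 were not called. Igf1, a growth hormone target, stood at 1253 ± 236 against 602 ± 216 CPM and Ghr, the growth hormone receptor, at 296 ± 94.9 against 535 ± 49.3 CPM. Of the 6 female-biased genes tested, 4 were above 0 and 2 below, with a median of 3.10, and 2 were called. Genes near 0 in control could pass the filter only through the other diets, so this median was partly set by the filter. The same limit bears on the 2 called genes, Cyp17a1 and Acot3, which were both low in control. Their calls are no separate evidence on the Mups. Cyp17a1, a steroid hydroxylase, rose from 0.923 ± 0.226 to 24.2 ± 7.68 CPM (edgeR adjusted p = 0.00434; HFD 21.2 ± 16.1), and Acot3, an acyl-CoA thioesterase, from 1.02 ± 0.558 to 23.0 ± 8.95 CPM (edgeR adjusted p = 0.00742; HFD 9.47 ± 6.82). Summed cholangiocyte markers moved too, at 31.7 to 50.2 CPM in HFD+LYC mRNA against 142 to 167 in control and 137 to 178 in HFD over 6 markers, of which 4 had reads in all 9 mRNA libraries and none was at 0 throughout a diet. Spp1 (33.2 ± 8.27 against 132.8 ± 10.1 CPM in control) and Sox9 (3.06 ± 1.06 against 14.1 ± 2.75 CPM) made up most of that sum, while Krt19 stood at 1.69 ± 0.572 against 1.82 ± 0.797 CPM and Krt7 at 1.37 ± 0.975 against 0.475 ± 0.315 CPM. The part of these markers in the Mup values was not tested.

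**Figure D4:**
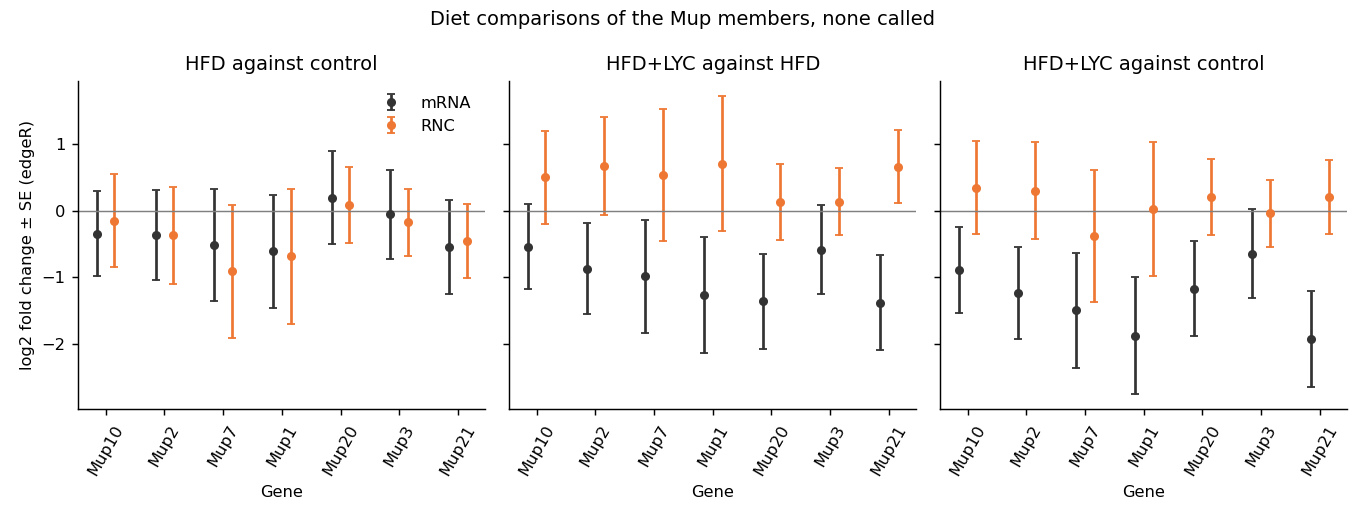
Log2 fold change of each member with its standard error from edgeR (y axis) for the 3 diet comparisons, mRNA in black and RNC in orange. The mRNA points of HFD+LYC lie below 0 in both comparisons, the RNC points of HFD+LYC run from -0.38 to 0.71 (their sums are below 0 with library totals or without HFD+LYC RNC replicate 1), 6 of 7 members are below 0 in HFD against control in both kinds of library, and 0 of 7 members were called in each of the 6 comparisons.

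On ribosomes, HFD livers were compared with control livers in the same way. The 7 members summed to 141784 ± 75974 CPM in HFD RNC and 171190 ± 35972 in control RNC, a log2 ratio of -0.27. Members were below 0 in 6 of 7 cases (48.8% of all genes), from -0.91 for Mup7 to 0.08 for Mup20, with a median of -0.37. edgeR called 0 of 7 (0.00858% of 11660 genes were called), each at an adjusted p of 1.00. Unadjusted p was under 0.05 for 0 of 7, and DESeq2 and limma-voom called 0. Mup7 stood at 11742, 22072 and 21611 CPM in control and 14608, 1402 and 13420 in HFD, with the low value in HFD replicate 2. Mup20 stood at 10253, 16146 and 18765 in control and 14577, 11721 and 21403 in HFD, where the groups overlapped through most of their range. The directions of Mup2, Mup3, Mup10 and Mup20 turned when single libraries were left out.

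The HFD+LYC RNC values rested on 1 library. Mup10 stood at 191284, 41749 and 41517 CPM in HFD+LYC RNC replicates 1, 2 and 3, against 59974, 86001 and 70326 in control and 106298, 26232 and 62140 in HFD. Mup1 stood at 17373, 2106 and 2013 CPM in HFD+LYC, against 4961, 8892 and 7340 in control and 8052, 459 and 4673 in HFD. Mup21 stood at 1696, 415 and 536 CPM in HFD+LYC, against 1049, 621 and 630 in control and 698, 295 and 682 in HFD. HFD+LYC replicate 1 was above every control and HFD library for all 7 members, and replicates 2 and 3 were below every control library for all 7. That library had a TMM factor of 0.428, against 0.836 to 1.34 in the other RNC libraries, and its unscaled share of reads in the 7 members, 17.9%, was within the control range. Summed cell type markers moved in the same HFD+LYC RNC libraries. Hepatocyte markers (all 9 read in every RNC library) summed to 113248 to 416083 CPM, against 88702 to 107081 in control and 69576 to 99239 in HFD. Sinusoidal endothelial markers (4 of 8 read in every RNC library) summed to 35.2 to 51.1 CPM, against 104 to 129 in control and 114 to 135 in HFD. Stellate cell markers (6 of 8) stood at 66.6 to 99.6 CPM, against 172 to 256 and 225 to 272, and Kupffer cell markers (8 of 11) at 153 to 216, against 247 to 284 and 282 to 499. Single markers did not all move with these sums. Among hepatocyte markers, Apoa1 stood at 72200 ± 50142 CPM in HFD+LYC against 6967 ± 1590 in HFD. Apob stood at 2049 ± 685 against 1962 ± 468, and Cps1 at 814 ± 136 against 625 ± 186 (1150 ± 177 in control). Of the stellate cell markers, Dcn stood at 14.1 ± 8.80 CPM against 134 ± 28.9 in HFD. Means of Des (stellate), Lyve1 (sinusoidal) and Cd68 (Kupffer) were above those in HFD. No marker of these 4 lists was at 0 throughout a diet, and the part of these markers in the Mup values was not tested.

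Against HFD, all 7 members were above 0 in HFD+LYC RNC with TMM, and 0 of 7 with library totals or without replicate 1 (58.0% of all genes were below 0), with a median of 0.53 and edgeR adjusted p from 0.439 to 0.902. Against control, 5 of 7 were above 0 with TMM, and 0 of 7 under those same 2 alternatives (57.7% of all genes were below 0), with a median of 0.20. edgeR called 0 of 7 in both (26.8% and 26.3% of genes were called), and 0 of 7 had an unadjusted p under 0.05. DESeq2 and limma-voom called 0 in both. The log2 ratio of the family sum was 0.48 against HFD and 0.21 against control. Without HFD+LYC RNC replicate 1 it was -0.69 and -0.96, and with scaling to library totals alone -0.50 and -0.69. The median of all genes moved with the scaling, from -0.29 to -0.87 against HFD and from -0.28 to -0.74 against control. Relative to that median the sum stood at 0.78 with TMM and 0.38 with library totals against HFD, and at 0.49 and 0.06 against control.

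RNC and mRNA libraries were compared within each diet in a model of all 18 libraries, with no term for the liver. The question was how far Mup transcripts were represented on ribosomes relative to total RNA. With the liver as a block, the number of members called within each diet was unchanged. The comparisons are of shares of libraries and not of amounts of RNA. Every member had a higher scaled level in RNC than in mRNA in every liver, 63 of 63 pairs of member and liver. The ratios ran from 1.54-fold for Mup7 in HFD+LYC replicate 3 to 22.0-fold for Mup1 in HFD+LYC replicate 2. The pairs come from 9 livers, share the scaling of each library and include near-identical copies, so they are not separate observations. As unscaled shares of reads, 60 of 63 were higher, from 0.768-fold to 10.7-fold. The summed family was 2.18, 4.25 and 2.24 times as high in RNC in control replicates 1, 2 and 3. It was 3.07, 2.44 and 2.65 times as high in HFD and 10.6, 9.05 and 1.95 times in HFD+LYC. The HFD livers were close to each other, while HFD+LYC held both the highest ratios and the lowest.

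In control livers all 7 members were higher in RNC without overlap, where 25.2% of all genes were, and 52.3% of all genes had a log2 change below 0. The log2 changes ran from 1.24 for Mup21 to 1.79 for Mup7, with a median of 1.53 against -0.07 for all genes. edgeR called 0 of 7 (2.13% of 12872 genes were called), with adjusted p from 0.145 to 0.304. DESeq2 and limma-voom called 0, and unadjusted p was under 0.05 for Mup3 and Mup20 (27.3% of all genes). In a fit without the HFD+LYC livers edgeR called 3 members in control, Mup3 (adjusted p = 0.0318), Mup2 (0.0373) and Mup20 (0.0446), in a fit that called 30.7% of 12541 genes. In the model of all 18 libraries the 3 diets share 1 estimate of the spread per gene.

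In HFD livers all 7 were above 0 as well (52.3% of all genes were below 0), from 1.35 to 1.62 with a median of 1.43. Mup3, Mup20 and Mup21 were higher without overlap (16.6% of all genes). edgeR called 0 of 7 (0.101% of genes were called), with adjusted p from 0.221 to 0.434, and DESeq2 and limma-voom called 0. Unadjusted p was under 0.05 for Mup3 and Mup10 (20.8% of all genes). Without the HFD+LYC livers edgeR called Mup2 (adjusted p = 0.0494), where 17.6% of genes were called.

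In HFD+LYC livers edgeR called all 7 members higher in RNC, with adjusted p from 0.00210 for Mup21 to 0.0359 for Mup7. Of all genes 43.4% were called and 12.8% were called higher, 12.3% were higher without overlap as the 7 members were, and 61.9% had a change below 0. The median of the members was 2.86, against -0.51 for all genes. Mup21 stood at 1197 ± 969 CPM in RNC and 119.5 ± 83.9 in mRNA (n = 3; log2 change 3.32, SE 0.76), and Mup10 at 124086 ± 118172 against 22694 ± 13238 CPM (log2 change 2.45, SE 0.72). Without HFD+LYC RNC replicate 1 edgeR called 3 of 7, without HFD+LYC mRNA replicate 2 it called 4, and with library totals alone 3. DESeq2 called 6 and gave no adjusted p for Mup7. Limma-voom called 6, all but Mup7 (adjusted p = 0.0628). The share of all genes called in these alternative fits is not given here. Their counts therefore cannot be set against a background, which was 43.4% in the main fit. Of 9 hepatocyte markers, 4 were called higher and 1 lower in the same comparison, of 8 sinusoidal endothelial markers 2 lower, of 8 stellate cell markers 1 lower and of 11 Kupffer cell markers 2 higher, and their part in the Mup values was not tested. All 16 abundant secreted plasma proteins were called higher there, with a median of 3.00, and all 16 were above 0 in control (median 1.03) and HFD (median 0.77), where 0 were called.

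**Figure D5:**
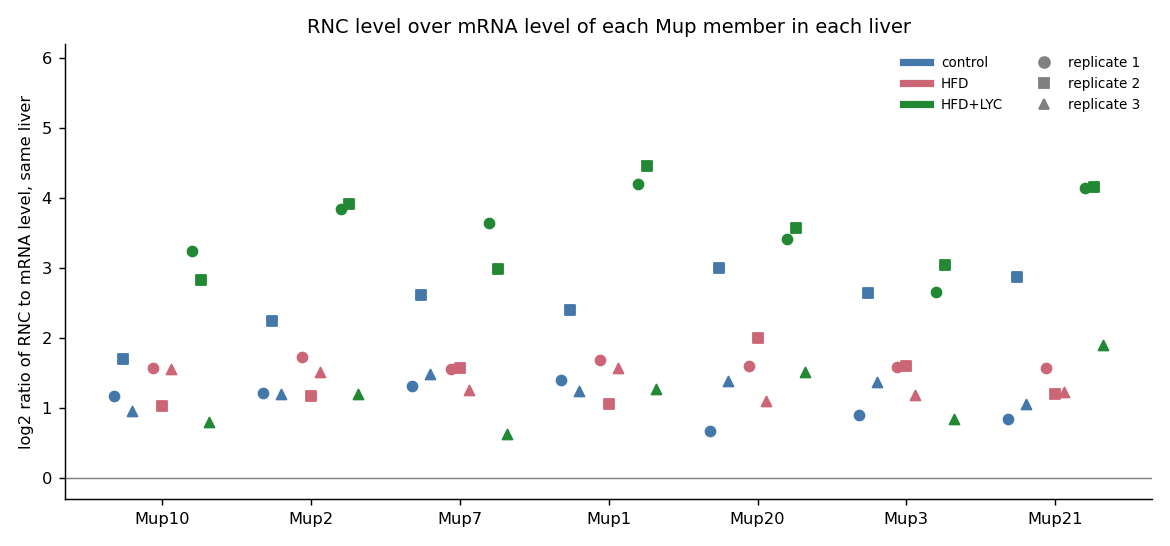
Log2 ratio of RNC to mRNA level (TMM-scaled over 18 libraries) for each member and liver, with colours for the diet and shapes for the replicate. All 63 points lie above 0, and HFD+LYC replicates 1 and 2 lie apart from replicate 3, which has 1.54-fold for Mup7.

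How the ratio of RNC to mRNA changed between diets was tested as the interaction of diet and library kind. For HFD against control the members had a median of -0.05 and edgeR called 0 of 7, as of all genes (0.00% of 12872), with standard errors of 0.88 to 1.42. For HFD+LYC against HFD all 7 were above 0 (6 of 7 with library totals), with a median of 1.45, and Mup21 alone had no overlap between the livers' ratios (8.03% of all genes were higher without overlap). edgeR called 0 of 7 (16.4% of genes were called), with adjusted p from 0.195 to 0.685. For HFD+LYC against control all 7 were above 0 (5 of 7 with library totals), the median was 1.33 and edgeR called 0 of 7 (14.8% of genes were called). Unadjusted p was under 0.05 for Mup21 alone, at 0.0495 (28.0% of all genes), and its adjusted p was 0.177. Unadjusted p was under 0.05 for 0 of 7 in the first 2 of these comparisons, and DESeq2 and limma-voom called 0 in all 3. Without HFD+LYC RNC replicate 1, 4 of 7 members were above 0 for HFD+LYC against HFD.

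Members varied together over livers, as a description over 9 livers that share diet and scaling. Pearson's r of log2(CPM + 1) in mRNA was 0.89 to 0.98 among Mup1, Mup2, Mup7 and Mup10, and 0.92 to 0.96 among Mup3, Mup20 and Mup21. Between the central and the peripheral genes it was 0.74 to 0.89. The highest pair was Mup2 and Mup10 in mRNA (0.98) and in RNC (0.99), and the part of reads that fit both copies was not tested. In RNC, r was 0.91 to 0.99 within the central set 0.64 to 0.92 within the peripheral set and 0.67 to 0.93 between the sets, so pairs between the sets were not less alike there than pairs of peripheral genes. Outside the rows named Mup, the 5 genes most like the summed members over 9 mRNA libraries were Pdzd11 (r = 0.96), Ces2c, Sdr9c7, Rarres1 and Enpp5 (each 0.95, rounded), of 8291 genes whose mean reached 10 CPM. In RNC they were Gm2083 (0.96), Tmem258 (0.94), Nrep (0.93), Ssr1 (0.93) and Pdia4 (0.90), of 5711 genes. Ssr1 is a subunit of the translocon-associated protein complex and Pdia4 a protein disulfide isomerase, both of the endoplasmic reticulum. The RefSeq table gives Gm2083 as another name of Mup13, so this row, at 709 to 21132 CPM, is itself of the Mup family. None of these genes was on a list used here.

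Promoters of 5 members, Mup2, Mup3, Mup7, Mup10 and Mup21, were matched by symbol in RefSeq for GRCm38.p6, as 300 bases from 250 before the table's start to 50 after it. They were searched on both strands, since the members varied together. The STAT5 motif TTCNNNGAA, the TATA box TATAAA, the HNF1 motif and the C/EBP motif TTGCGCAA were in 0 of 5, and in 8.30%, 13.6%, 0.00913% and 0.183% of 32851 promoters of that length. TGTTCT, the core of a binding site of the glucocorticoid and androgen receptors, was in Mup3 and Mup21, and in 19.0% of all promoters. TATATAAG, searched for after the sequences had been seen, was in 4 of 5, namely Mup2, Mup3, Mup10 and Mup21. It was in 11 of the 14 promoters that could be matched among the 21 rows named Mup, and in 1.01% of all promoters. The last bases before the table's start of Mup7 resemble bases that lie well before TATATAAG in Mup3 and Mup21. The Mup7 window may thus cover another region, so its lack of these motifs says little. The first base of TATATAAG was 27 before the start in Mup2, 30 in Mup10, 11 in Mup3 and 8 in Mup21, so the table's starts differ between genes. Those of Mup3 and Mup21 are printed to show it beside how alike they are, as the 100 bases before the table's start on the minus strand, with TATATAAG in capitals.
Mup3 (chr4:62087318-62087417): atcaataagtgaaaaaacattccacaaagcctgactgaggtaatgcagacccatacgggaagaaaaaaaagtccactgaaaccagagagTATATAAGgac
Mup21 (chr4:62150842-62150941): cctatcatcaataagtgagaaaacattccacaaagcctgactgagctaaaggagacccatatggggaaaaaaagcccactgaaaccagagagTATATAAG
These matches describe letters only.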

How the data were processed

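Poly(A) libraries of total RNA and of ribosome-bound RNA from 9 mouse livers were analysed from the deposited tables. Per the file headers, each file gives the authors' read count, an RPKM value and the longest transcript length (max length) per gene; RPKM, computed by the authors from those, was used only to derive read totals. Per the submitters' processing notes, the build was mm10 and bases were called with bcl2fastq, and reads were mapped to RefSeq RNA per the series text; neither the aligner nor strand use is given in the sources used here. Deposited counts are whole numbers, and 3 reads stood for 0.235 to 0.662 CPM in a library; such floors cover counting error only.

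The members and lists were chosen with earlier results of these data known. Beside the members, genes of the lists were named when called (up to 3 by p) or by highest level, and the 5 genes most like the family by r. Counts were fitted with edgeR 4.0.16 in R 4.3.3 (filterByExpr minimum count 10, minimum total 15, TMM, robust quasi-likelihood test, two-sided Benjamini-Hochberg adjusted p under 0.05 over all genes). The 9 mRNA libraries (12664 genes), 9 RNC libraries (11660) and all 18 (12872) were fitted apart, so a gene's CPM differs between fits. The family sum was compared as a log2 ratio of group means for diets and as the mean of per-liver log2 ratios for RNC against mRNA, with no test. On simulated counts with 200 changed genes, 73.8% of 4-fold changes were recovered in HFD against control mRNA and 24.2% in RNC, and 17.9% for the ratio change. Of 2-fold changes, 12.1%, 1.52% and 0.00% were recovered in the same order. All member changes in HFD against control were below 2-fold, so the absence of calls there says little. Alternatives were DESeq2 1.42.0, limma-voom (limma 3.58.1), other scalings, no filter, fewer libraries and blocks.

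Libraries that share diet and replicate number have the same animal code in their file names, whether mRNA or RNC, which pairs them by liver. Residuals of such pairs correlated at -0.04 to 0.56, with 3 of 9 over 0.1.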

Additional observations from a re-analysis of the deposited data

How the results depend on the processing

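The main fits called members in 1 comparison only, RNC against mRNA in HFD+LYC, and alternatives both removed and added calls. In HFD+LYC against control mRNA, DESeq2 called 1 member and edgeR with the replicate number as a block called 2, Mup1 (adjusted p = 0.0275) and Mup21 (0.0179); leaving out 1 library gave 0 to 1. In HFD+LYC against HFD mRNA the block called 2, Mup20 (0.0491) and Mup21 (0.0324). The share of all genes that these alternative fits called is not given here, so their counts cannot be set against a background. The labels do not say that a number links livers of different diets. Residuals of libraries with the same number in different diets correlated at -0.45 to 0.49, with 9 of 18 over 0.1. Those with different numbers correlated at -0.69 to 0.63, with 6 of 36. Most of the same-number pairs over 0.1 were mRNA pairs, the kind of library in which the block added calls. With the liver as a block over mRNA and RNC, 7 members were called in HFD+LYC and 0 in control and HFD, as without it.

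For RNC against mRNA in HFD+LYC, 3 members were called with library totals, and 3 to 7 when 1 library was left out. Mup1, Mup3, Mup7 and Mup10 lost their calls with library totals and without HFD+LYC RNC replicate 1. Shares of all genes called in these fits are not given here either. Without the HFD+LYC livers 3 were called in control and 1 in HFD. With library totals the family log2 ratio of RNC to mRNA was 0.73 in control, 0.75 in HFD and 1.11 in HFD+LYC, in place of 1.46, 1.44 and 2.52, while the median of all genes moved from -0.07 to -0.80 in control. The family sum in HFD+LYC RNC, leaving out 1 library, ranged from -0.69 to 0.88 against HFD and from -0.96 to 0.56 against control.

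Single members turned direction in uncalled HFD comparisons. In mRNA, leaving out 1 library gave -0.40 to 0.52 for Mup20, -0.997 to 0.19 for Mup21, -0.41 to 0.24 for Mup3 and -0.94 to 0.0077 for Mup7, and library totals gave 0.013 for Mup3. In RNC the ranges were -0.71 to 0.22 for Mup10, -0.87 to 0.012 for Mup2, -0.36 to 0.074 for Mup3 and -0.20 to 0.28 for Mup20. The causes were not tested. Reads of Mup21, the least read member, ran from 319 to 11898 per library, and how depth and the spread between livers share in the standard errors was not tested.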
